A study of Mus musculus with 12 samples.

Results

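The NDRG genes (N-myc downstream regulated genes) are a small family of 4 members in the mouse, Ndrg1, Ndrg2, Ndrg3 and Ndrg4. All 4 were found among the 26921 genes of the deposited count table by matching the Ensembl identifiers to their symbols in the GENCODE M21 annotation of GRCm38. The family was chosen by the counts of these same libraries, in which Ndrg4 differed between the genotypes, so the genotype differences of its members are given as a description and carry no test. Left ventricular RNA was sequenced from mice aged 16 weeks, with 6 WT and 6 cmGch1 KO hearts and 1 library per heart. WT mice were Gch1 flox/flox, with both Gch1 alleles floxed and no Cre. Their cmGch1 KO littermates were Gch1 flox/flox and carried in addition 1 copy of a Cre transgene driven by α-MHC, a promoter of cardiomyocyte genes, so that these cells lose GTP cyclohydrolase 1, the rate-limiting enzyme of tetrahydrobiopterin synthesis. Mice with Cre and unfloxed Gch1 were not among these libraries, so loss of Gch1 and presence of Cre cannot be told apart.

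NDRG proteins share an α/β-hydrolase fold but lack the catalytic residues of a hydrolase, and they act in stress responses, growth control, membrane traffic and differentiation. Ndrg1 is induced by hypoxia and repressed by MYC, and its product is phosphorylated by SGK1 and then GSK3 in a repeated stretch near its C-terminus. Ndrg2 is abundant in heart, skeletal muscle and brain, and its product is phosphorylated by AKT and SGK kinases downstream of insulin. NDRG3 binds lactate and is degraded through prolyl hydroxylases and VHL when oxygen is plentiful. Ndrg4 is expressed mainly in brain and heart, is required for cardiomyocyte growth in zebrafish embryos, and its product partners with BVES (POPDC1), a cAMP-binding membrane protein.

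The coding sequences show how far the members have diverged, which bears on whether their reads can be told apart. In pairwise alignments of 1 coding sequence per gene, identity lay between 62.5% (Ndrg1 and Ndrg2) and 67.3% (Ndrg1 and Ndrg4). The longest run of identical bases in any pair was 31, between Ndrg2 and Ndrg4. No stretch of 50 bases in the annotated transcripts of 1 member occurred in another member. The best conserved window of 60 coding bases lay within a single exon of each gene and had 37 positions identical in all 4 genes. It is printed here from GRCm38, 5′ to 3′ on the coding strand, with capitals at the 23 positions that differ between members. The windows are at chr15:66943075-66943134 (minus strand) in Ndrg1, chr14:51908578-51908637 (minus strand) in Ndrg2, chr2:156943997-156944056 (minus strand) in Ndrg3 and chr8:95708625-95708684 (plus strand) in Ndrg4.
Ndrg1: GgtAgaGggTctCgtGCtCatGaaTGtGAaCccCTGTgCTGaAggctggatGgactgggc
Ndrg2: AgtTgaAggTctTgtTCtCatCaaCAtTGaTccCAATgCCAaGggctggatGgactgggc
Ndrg3: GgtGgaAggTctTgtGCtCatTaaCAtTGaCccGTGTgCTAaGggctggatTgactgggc
Ndrg4: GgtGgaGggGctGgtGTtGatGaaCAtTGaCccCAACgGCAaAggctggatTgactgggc
Even in this window the members differed at intervals of a few bases, and a read spanning it would carry the letters of 1 gene.

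Among the members Ndrg1 alone carried a close tandem repeat of 30 bases in its coding sequence, shown because it holds the phosphorylated stretch that sets its product apart. Its 3 units of 30 bases followed each other in frame within 1 exon at chr15:66930951-66931040 (GRCm38, minus strand), with 24 bases identical in all units and a mean identity of 85.6%. Capitals mark the bases that differ between units.
Unit 1: gagggCAcccgTagccgctcCcaTaccagC
Unit 2: gagggCCcccgAagccgctcGcaCaccagT
Unit 3: gagggGTcccgTagccgctcCcaTaccagT
The best run of 3 consecutive 30-base units in the coding sequences of the other members reached only 38.9% in Ndrg3 and 41.1% in Ndrg2 and Ndrg4.

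The start regions were searched for the E-box CACGTG bound by MYC and MAX, and for ACGTG, the core of the element bound by hypoxia-inducible factors, on both strands in the 250 bases before each RefSeq transcript start (GRCm38.p6). Of the 4 NDRG genes, 3 had such windows, 9 in all, and Ndrg1 had none. The E-box was in 1 of 4 windows of Ndrg4, in 0 of 3 of Ndrg2 and in 0 of 2 of Ndrg3, and in 6.02% of all 32851 windows. ACGTG lies within the E-box, so the same Ndrg4 window held it, as did 16.6% of all windows. The Ndrg4 site is shown with 12 bases on either side at chr8:95677713-95677742 (plus strand), and capitals mark the E-box.
Ndrg4 E-box: cgcccacccaccCACGTGggcacgcccccg
It ended 32 bases before that start and lay in the 5′ untranslated region of 1 of the 11 annotated Ndrg4 transcripts. The match is a description of letters and not a sign of binding.

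All 12 libraries had enough counts for every member. Totals were 22356463 to 37917806 counts per library in WT and 19921398 to 35480715 in cmGch1 KO, and each member had at least 317 counts in each library. Gch1 was at 10.7 ± 0.974 cpm (counts per 1000000 counts of the library, scaled by edgeR's TMM factors, mean ± SD, n = 6) in WT and at 5.48 ± 0.855 cpm (n = 6) in cmGch1 KO, with no overlap between the genotypes. The counts cover the whole gene and every cell type of the ventricle. The libraries of cmGch1 KO replicates 2 and 3 stood apart from the other 10, with 86.7 and 99.1 cpm of Xist, no counts of 4 Y-linked genes, and 14.9% and 16.1% of counts from mitochondrial genes against 18.3% to 22.9% in the others. All 6 WT libraries had Y-linked counts and at most 0.185 cpm of Xist, so these 2 libraries differed from WT in sex-linked expression as well as in genotype. Values without them are given where they move a result.

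Ndrg4 was the family member that was higher in cmGch1 KO hearts, and every cmGch1 KO heart was above every WT heart. Ndrg4 (ENSMUSG00000036564, chr8:95676980-95715119, plus strand) was at 382 cpm in the lowest WT library, 427 at the median and 479 in the highest. In cmGch1 KO libraries it was at 603, 624 and 649 cpm. The gap between the highest WT and the lowest cmGch1 KO library was 123 cpm, wider than the 97.5 cpm between the lowest and highest WT libraries. The means were 428 ± 35.4 cpm in WT hearts and 624 ± 17.4 cpm in cmGch1 KO hearts (n = 6 each), so the cmGch1 KO mean was 196 cpm higher and stood at 146% of the WT mean. The log2 fold change in the edgeR fit over all 11225 tested genes was 0.54 (SE 0.06). In the deposited log2 normalized values the difference was 0.53. The spread within cmGch1 KO was smaller than within WT, and the 2 high-Xist libraries held the lowest cmGch1 KO values, 603 and 607 cpm, with the other 4 between 620 and 649. Without them the cmGch1 KO mean was 148% of WT.

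Ndrg2, the most abundant member, was lower on average in cmGch1 KO hearts by a much smaller proportion, and the genotypes overlapped. Ndrg2 (ENSMUSG00000004558, chr14:51905271-51914158, minus strand) was at 1187, 1253 and 1319 cpm in the lowest, median and highest WT library. In cmGch1 KO it was at 1053, 1165 and 1215 cpm. Of the 6 cmGch1 KO libraries, 5 were below the lowest WT library while replicate 4 was within the WT range. The means were 1256 ± 51.1 cpm in WT hearts and 1141 ± 62.1 cpm in cmGch1 KO hearts, 90.8% of WT, with a log2 fold change of −0.14 (SE 0.06) that did not pass the threshold. The high-Xist libraries were the lowest, at 1077 and 1053 cpm, and without them the cmGch1 KO mean was 93.8% of WT. In bulk tissue, fewer cells of a type and less RNA per cell cannot be told apart.

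Cardiomyocyte markers had a median log2 fold change of the same size as that of Ndrg2. Of 10 markers tested, 7 were lower and 3 higher, with a median of −0.14 and none passing the threshold. Scaling by library size alone moved this median to −0.07. Their summed level was 65840 to 69473 cpm in WT hearts and 59916 to 64503 cpm in cmGch1 KO hearts, with no overlap. Of single tested genes, 0.802% had cmGch1 KO below WT without overlap. Each of the 10 markers taken singly overlapped between the genotypes. Much of the sum was Myh6, which averaged 23054 cpm in WT hearts and 20302 cpm in cmGch1 KO hearts. The part of these markers in the values of Ndrg2 and Ndrg4 was not tested.

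Ndrg1 and Ndrg3 were expressed at much lower levels and their genotype means were within the spread between hearts. Ndrg1 (ENSMUSG00000005125, chr15:66929318-66969640, minus strand) was at 31.6, 36.3 and 41.1 cpm in the lowest, median and highest WT library and at 33.5, 36.0 and 37.2 cpm in cmGch1 KO. All 6 cmGch1 KO values lay within the WT range. The means were 36.4 ± 3.48 and 35.6 ± 1.62 cpm, and the log2 fold change was −0.03 (SE 0.07, 95% interval −0.19 to 0.12). Ndrg3 (ENSMUSG00000027634, chr2:156927345-156992056, minus strand) was at 12.6, 14.3 and 15.4 cpm in WT and at 13.0, 14.3 and 16.2 cpm in cmGch1 KO. Here 2 cmGch1 KO libraries were above the highest WT library, among them the high-Xist replicate 2 at 16.2 cpm, and the rest were within the WT range. The means were 14.3 ± 1.07 and 14.5 ± 1.23 cpm, and the log2 fold change was 0.02 (SE 0.08, 95% interval −0.15 to 0.18). The directions for Ndrg1 and Ndrg3 turned under other settings, Ndrg1 with scaling by library size alone and Ndrg3 without both high-Xist libraries, and neither gene was called under any of 24 alternatives.

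Set against all tested genes, 1 of the 4 members was called at an FDR under 0.05, where 1.12% of the 11225 tested genes were called in either direction, 0.677% higher and 0.445% lower. The same member was the only one whose genotypes did not overlap, which held for 1.87% of tested genes in either direction and for 1.07% with cmGch1 KO above WT. Because these values chose the family, nothing is read from these shares. All 4 members passed the filter on low counts in every library, and none entered through 1 genotype only. Among the 76 genes called higher, Ndrg4 stood out by its cpm, which is not per length, rather than by its fold. Only 1 of them, Ankrd1, a stress-induced cardiac ankyrin repeat protein, had a higher mean level in cpm, and 3 gained more cpm, whereas 39 had a larger log2 fold change. The median of the 76 was a log2 fold change of 0.56 at a mean of 28.8 cpm.

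**Figure D1:**
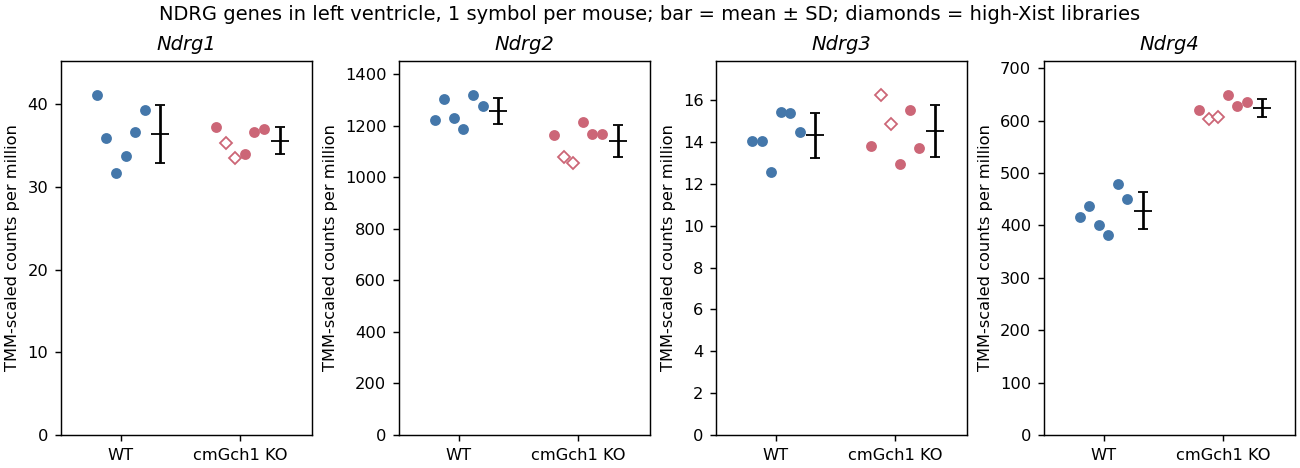
TMM-scaled cpm of each NDRG gene (y axis, from 0, a separate scale per gene) in WT and cmGch1 KO hearts, 1 symbol per mouse and library, with the mean ± SD of 6 beside each group; open diamonds are the 2 cmGch1 KO libraries with high Xist. Only Ndrg4 separates the genotypes, with 382 to 479 cpm in WT and 603 to 649 in cmGch1 KO, while 5 of 6 Ndrg2 values in cmGch1 KO lie below the lowest WT value.

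The difference in Ndrg4 kept its direction and its call under each of 24 alternatives, with log2 fold changes from 0.51 without WT replicate 4 to 0.62 with scaling by library size alone. Ndrg2 was lower under each of the 24, from −0.16 to −0.07, and was called under none. For Ndrg1 the range was −0.07 to 0.04 and for Ndrg3 −0.04 to 0.09, on either side of 0. All of these alternatives use the libraries that chose the family.

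**Figure D2:**
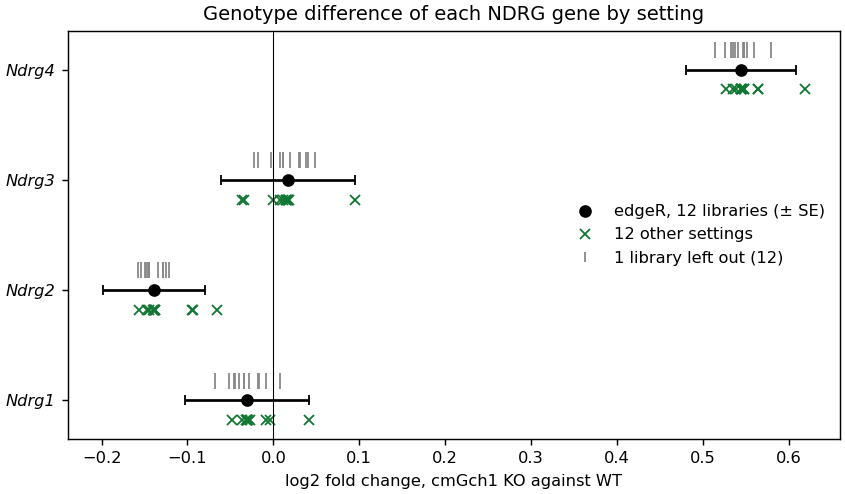
Log2 fold change of each NDRG gene, cmGch1 KO against WT (x axis), for the edgeR fit on 12 libraries (black, ± SE), 12 other settings of normalization, test, filter, covariate or libraries (green crosses) and 12 fits that leave out 1 library each (grey ticks). Ndrg4 lies between 0.51 and 0.62 throughout, Ndrg2 between −0.16 and −0.07, and Ndrg1 and Ndrg3 lie on both sides of 0.

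To compare levels between members, cpm values were divided by the length of all annotated exons of each gene, which gives FPKM (fragments per kilobase of exon, on the cpm scale). The order was Ndrg2, Ndrg4, Ndrg1, Ndrg3 in each of the 12 hearts. In WT, Ndrg2 was at 370 ± 15.0 FPKM, Ndrg4 at 87.4 ± 7.24, Ndrg1 at 5.52 ± 0.527 and Ndrg3 at 1.71 ± 0.127 (n = 6). In cmGch1 KO, Ndrg2 was at 336 ± 18.3 FPKM, Ndrg4 at 127 ± 3.56, Ndrg1 at 5.40 ± 0.245 and Ndrg3 at 1.73 ± 0.147 (n = 6). The family in the left ventricle was thus almost wholly Ndrg2 and Ndrg4. Among tested genes, by cpm and not per length, Ndrg2 was at the 99.4th percentile of mean level, Ndrg4 at the 98.3rd, Ndrg1 at the 64.7th and Ndrg3 at the 34.7th.

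The lowest fold of each step was above 1, so neighbours in this order did not overlap within any heart. Within WT libraries Ndrg2 was on average 4.24-fold above Ndrg4 (3.96 to 4.48 over the 6 hearts), Ndrg4 was 15.9-fold above Ndrg1 (13.7 to 17.6) and Ndrg1 was 3.23-fold above Ndrg3 (2.78 to 3.72). In cmGch1 KO libraries these folds were 2.63 (2.50 to 2.70), 23.6 (22.4 to 25.8) and 3.13 (2.76 to 3.44). The fold had the same direction in all 6 hearts of each genotype. The pairs were taken from the order seen in these hearts, so no p is given for it. With the length of the longest transcript in place of all exons, the order was the same. The folds depend on which exons are used in the heart, which gene counts do not show.

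**Figure D3:**
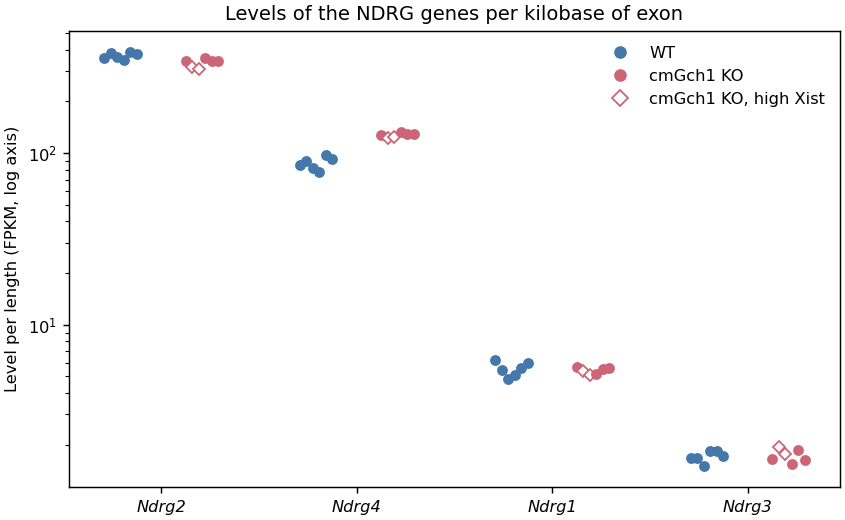
Level per length of the 4 NDRG genes in FPKM (y axis, log scale), in order of level, for WT (blue) and cmGch1 KO (red) hearts, 1 symbol per mouse, with the 2 high-Xist libraries as open diamonds. Ndrg2 (370 and 336 FPKM on average in WT and cmGch1 KO) and Ndrg4 (87.4 and 127) lie far above Ndrg1 and Ndrg3 in every heart.

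With Ndrg4 higher and Ndrg2 lower, the summed level of the family was nearly the same in both genotypes, while its make-up differed. The sum was 464 ± 22.1 FPKM in WT (434 to 494) and 470 ± 21.6 FPKM in cmGch1 KO (441 to 497), with wide overlap. Ndrg4 made up 18.8 ± 0.717% of the sum in WT and 27.1 ± 0.604% in cmGch1 KO (n = 6 each), with no overlap, and Ndrg2 made up 79.6 ± 0.742% and 71.4 ± 0.656%. The Ndrg2 to Ndrg4 ratio fell from 4.24 ± 0.199 to 2.63 ± 0.0813. These ratios within a library do not depend on the scaling between libraries, though they rest on the same contrast that chose the family.

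Hearts of 1 genotype differed little in the 2 abundant members. The coefficient of variation within genotype was 4.75% for Ndrg2 and 5.31% for Ndrg4, smaller than in 97.8% and 96.5% of tested genes. For Ndrg1 it was 7.53% and for Ndrg3 8.0%, smaller than in 87.1% and 84.6%. Ndrg3 had the fewest counts of the family, 317 to 556 per library.

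Ndrg2 and Ndrg4 rose and fell together from heart to heart within each genotype, although their genotype means went opposite ways. With the mean of each genotype taken off log2 cpm, Pearson's r between them was 0.76 over 12 libraries, and without the 2 high-Xist libraries it was 0.91 over 10. With the genotype difference left in, r was −0.56. Of all tested genes, 1.41% had an r with Ndrg4 at least as high as that of Ndrg2. The other pairs had lower r with genotype removed, 0.43 for Ndrg1 and Ndrg4, 0.26 for Ndrg1 and Ndrg2, 0.20 for Ndrg1 and Ndrg3, −0.36 for Ndrg2 and Ndrg3, and −0.00 for Ndrg3 and Ndrg4. Without the 2 high-Xist libraries these were 0.40, 0.09, 0.35, −0.05 and 0.16 over 10 libraries. The points of each pair share a library, its depth and its scaling factor, and these values are descriptions without a test.

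**Figure D4:**
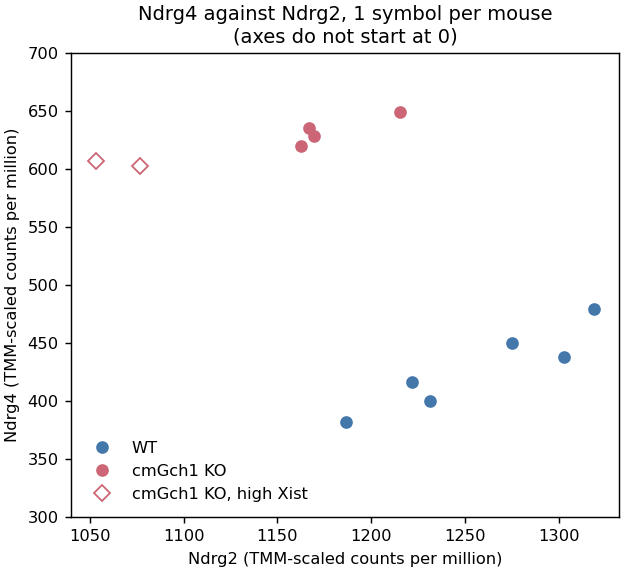
Ndrg4 (y axis) against Ndrg2 (x axis) in TMM-scaled cpm, 1 symbol per heart, WT in blue, cmGch1 KO in red and the 2 high-Xist libraries as open diamonds; the axes do not start at 0. The genotypes form separate groups, with 603 to 649 cpm of Ndrg4 in cmGch1 KO and 382 to 479 in WT, and within each group the hearts with more Ndrg2 tend to have more Ndrg4.

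The genes whose pattern over the 12 hearts was most like each member were ranked by Pearson's r with genotype means removed. For Ndrg4 they were Smim13 (r = 0.93), Slc35a3, a nucleotide sugar transporter of the Golgi (0.92), 9930111J21Rik2 (0.91), Pld3, a lysosomal phospholipase D family member (0.91), and Vps4b, an ATPase that disassembles ESCRT complexes (0.88). The lowest r with Ndrg4 were those of Slc25a5, a mitochondrial ADP/ATP carrier (−0.91), Ube2t (−0.90), Dpm2 (−0.90), AW209491 (−0.87) and Stk16 (−0.87). None of these 10 genes was called between the genotypes, and their log2 fold changes lay between −0.10 and 0.18. For Ndrg2 the list was Capn7 (0.93), Kdm1b (0.93), Pygb, the brain isoform of glycogen phosphorylase (0.92), mt-Nd4, a mitochondrially encoded subunit of complex I (0.92), and Trappc11 (0.92). The high-Xist libraries, which were lowest in Ndrg2, were also lowest in mitochondrial counts, and without them the r of mt-Nd4 with Ndrg2 was 0.80. For Ndrg1 the genes were Slc39a3 (0.91), Rims4 (0.88), C1qtnf9 (0.88), Tbc1d20 (0.87) and Pcdh12 (0.86). For Ndrg3 they were Def6 (0.89), Ocel1 (0.79), Nr2f1 (0.79), Pgm2 (0.78) and Tgfb1i1 (0.78). These are the ends of a ranking of 11225 genes over 12 libraries.

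Genes lying beside Ndrg4 on chromosome 8 did not pass the threshold. They were chosen for their position after values had been seen. Setd6, a lysine methyltransferase gene that begins 762 bases beyond Ndrg4 on the same strand, averaged 10.6 cpm in WT hearts against 10.5 cpm in cmGch1 KO hearts (log2 fold change −0.01, SE 0.08). Cnot1, a scaffold of the CCR4-NOT deadenylase that lies 4332 bases beyond, had −0.08 (SE 0.12). The nearest tested genes before Ndrg4 lay much farther away. They were Csnk2a2, a catalytic subunit of casein kinase 2, at 186941 bases with −0.01, and Cfap20 at 242111 bases with 0.03. Next came Mmp15, a membrane-bound metalloproteinase, at 301900 bases with 0.17. No annotated gene overlapped Ndrg4 or Ndrg2. Ndrg1 overlapped the antisense gene Gm17035, which shares 419 exon bases with it and is not among the genes of the deposited counts. It also overlapped Gm2895 on the opposite strand, which shares 137 exon bases and had at most 1 count in any library. Ndrg3 holds the small RNA gene Gm27653 in an intron. The strand setting of the counting is not given in the sources used here, so reads of Ndrg1 and of Gm17035 cannot be told apart. Of the 50-base stretches of Ndrg1 transcripts, 6.02% also occurred in other genes, against 2.72% for Ndrg3 and none for Ndrg2 and Ndrg4.

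The kinases that phosphorylate NDRG proteins did not pass the threshold at the level of RNA. A list of 16 genes held the SGK, AKT and GSK3 kinases, mTORC2, which activates SGK and AKT, and also Pdpk1 and Nedd4l. Of these genes 14 were tested, 4 were higher, 10 lower and none was called (background 1.12%). Their median log2 fold change was −0.06, and that of all tested genes was −0.01. Sgk1, the kinase of NDRG1, averaged 56.3 cpm in WT hearts against 46.9 cpm in cmGch1 KO hearts (log2 fold change −0.26, SE 0.17). Akt1 had −0.01 (SE 0.07), Akt2, which signals for insulin in muscle, −0.10 (SE 0.07), and Gsk3b −0.12 (SE 0.14). Without both high-Xist libraries the values were −0.14 for Sgk1, −0.02 for Akt1, −0.16 for Akt2 and −0.06 for Gsk3b. Scaling by library size alone moved the median of this list to 0.01.

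Of the MYC network 10 of 12 genes were tested and only Myc itself was called, 1 of 10 where 0.677% of all tested genes were called higher. Myc passed the filter on low counts only through the genotype in which it was higher, so nothing is read from this share. Myc was at 2.08, 2.38 and 3.47 cpm in the lowest, median and highest WT library and at 3.56, 4.49 and 7.25 cpm in cmGch1 KO. The WT median was thus below the filter's cpm of 3, and every cmGch1 KO library was above it. Where a cpm above 3 was required in every library, Myc was not tested. The genotypes did not overlap, although the lowest cmGch1 KO value, that of replicate 2, lay just above the highest WT value. The means were 2.62 and 4.90 cpm, a log2 fold change of 0.90 (SE 0.19, edgeR quasi-likelihood adjusted p = 0.0399), on 47 to 186 counts per library. In the deposited log2 normalized values the difference was 0.47. This call was lost when WT replicate 2, 3, 5 or 6 or cmGch1 KO replicate 1, 3, 5 or 6 was left out, in 8 of 12 such fits, with adjusted p from 0.0532 to 0.106 and log2 fold changes from 0.75 to 0.94. It was also lost without both high-Xist libraries (log2 fold change 1.03, adjusted p = 0.0613). As background, MYC represses NDRG genes in many cell types. Myc and Ndrg4 were both higher in cmGch1 KO, and with genotype means removed r between them was −0.42 over 12 libraries. A link between Myc and Ndrg4 was not tested. The other tested genes of the network had log2 fold changes from −0.28 for Max, the obligate partner of MYC (SE 0.15), to 0.18 for Mycn, which gave the family its name (SE 0.18), and the median of the list was −0.05. Mycn turned to −0.06 without both high-Xist libraries.

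Hypoxia-responsive genes, the group to which Ndrg1 belongs by its regulation, were mostly lower without passing the threshold. Of 27 listed, 25 were tested, 20 were lower and 5 higher, and none was called (background 1.12%). The median log2 fold change was −0.09, and that of all tested genes was −0.01. At an unadjusted p under 0.05, 5 were lower and 1 higher, where 506 of all tested genes were lower and 787 higher. Among the lower was Pdk1, at 235 cpm in WT hearts against 201 cpm in cmGch1 KO hearts (−0.22, SE 0.06). Its genotypes did not overlap (0.802% of tested genes had cmGch1 KO below WT without overlap). The higher gene was Slc2a1 (0.24, SE 0.11). Vegfa, the main angiogenic factor, averaged 382 cpm in WT hearts against 317 cpm in cmGch1 KO hearts (−0.27, SE 0.17), with −0.16 without both high-Xist libraries. Scaling by library size alone moved the median to −0.01. The list leaves out Ndrg1, which itself had −0.03.

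The genes that sense oxygen and control NDRG3 and the hypoxia-inducible factors included no call among the 12 of 14 that were tested, with 9 lower, 3 higher and a median of −0.08. Egln1, the prolyl hydroxylase PHD2 that marks NDRG3 for degradation, was at 518, 539 and 554 cpm in the lowest, median and highest WT library. In cmGch1 KO it was at 429, 484 and 507 cpm. The genotypes did not overlap for Egln1 (0.802% of tested genes had cmGch1 KO below WT without overlap), yet its log2 fold change of −0.17 (SE 0.06) had an edgeR adjusted p = 0.207. With DESeq2 it was called at an adjusted p = 0.0312 and with a surrogate variable at 0.0295. Hif1a had 0.26 (SE 0.10), Epas1 −0.17 (SE 0.11), Vhl −0.11 (SE 0.17) and Egln3 −0.04 (SE 0.12), and edgeR called none of these. Epas1 was called only with a surrogate variable. Without both high-Xist libraries Epas1 had −0.09, Vhl −0.07 and Egln3 −0.21. Ndrg3 RNA itself was within the spread between hearts, and protein was not measured in these files.

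For the making and transport of lactate, the ligand of NDRG3, a list of 10 genes was read, of which 8 were tested. The list also held Mpc1 and Mpc2, which carry pyruvate and not lactate, at −0.24 (SE 0.15) and −0.26 (SE 0.16). Of the 8 tested genes 7 were lower, 1 was higher and none was called (background 1.12%), with a median of −0.13. The higher gene was Slc16a1, a lactate transporter, at 231 cpm in WT hearts against 262 cpm in cmGch1 KO hearts (0.18, SE 0.07). The lowest log2 fold change was that of Ldhd (−0.29, SE 0.07, edgeR adjusted p = 0.0728). Ldhb, the heart isoform of lactate dehydrogenase, averaged 1684 cpm in WT hearts against 1493 cpm in cmGch1 KO hearts (−0.17, SE 0.07, called only with a surrogate variable, adjusted p = 0.0264), and Ldha, the isoform of glycolytic tissues, was at 603 and 568 cpm (−0.09, SE 0.07), with −0.14 for Ldha without both high-Xist libraries.

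The membrane partners of NDRG4 were also examined. Of 9 genes for the POPDC proteins and their cAMP-linked and vesicle partners, 8 were tested, 4 higher and 4 lower, with a median of 0.01 and none called. Bves, the direct partner, was at 40.6, 41.7 and 44.0 cpm in the lowest, median and highest WT library and at 43.7, 47.3 and 61.5 cpm in cmGch1 KO, so the genotypes overlapped (0.23, SE 0.08, adjusted p = 0.249). Popdc2 averaged 590 cpm in WT hearts against 705 cpm in cmGch1 KO hearts (0.26, SE 0.10, adjusted p = 0.311, or 0.0350 with a surrogate variable), and Popdc3 at 27.2 and 27.1 cpm (−0.01, SE 0.11). For Bves the high-Xist replicate 3 was the highest of all 12 hearts and replicate 2 the next, and without both libraries its log2 fold change was 0.12. The same replicates were the highest for Popdc2, at 854 and 739 cpm, and without them its log2 fold change was 0.16.

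**Figure D5:**
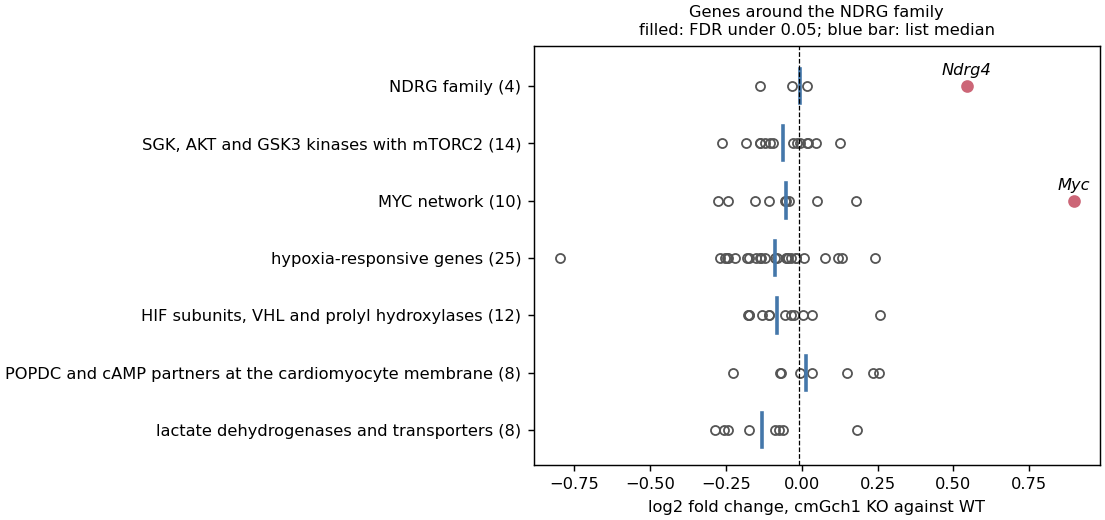
Log2 fold change, cmGch1 KO against WT (x axis), of every tested gene of the NDRG family and of 6 lists around it (rows, number tested in brackets), 1 circle per gene; filled circles have an FDR under 0.05, blue bars are list medians and the dashed line is the median of all tested genes, −0.01. Ndrg4 and Myc are the only filled circles, and the medians of the other lists lie between −0.13 and 0.01.

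Ndrg4 and Ndrg2 are also expressed in neurons and glia, so markers of nerve and of other cell types of the ventricle were read beside them. Of 16 nerve and glia markers only 4 passed the filter and none was called. Their summed level was 28.2 to 40.8 cpm in WT hearts and 29.8 to 51.6 cpm in cmGch1 KO hearts, overlapping, and of the sympathetic markers Th had at most 1 count in any library, while Dbh averaged 8.80 cpm in WT hearts and 6.81 in cmGch1 KO hearts. Uchl1, a neuronal ubiquitin hydrolase, averaged 9.70 and 14.7 cpm, a log2 fold change of 0.59 (SE 0.15) close to that of Ndrg4, with an edgeR adjusted p = 0.105. The sum over all 16 markers was below the cpm of Ndrg4 alone in every heart. These cpm are of different genes and not per length, so they do not show how much Ndrg4 RNA nerve or glia supply. Fibroblast markers were higher in 8 of 8 (median 0.19) and macrophage markers in 7 of 8 (median 0.27), none called. At an unadjusted p under 0.05 the number higher was 3 of 8 fibroblast and 6 of 8 macrophage markers, with 0 lower in either list. Of all 11225 tested genes, 787 were higher and 506 lower at that p. The summed levels of fibroblast and of macrophage markers both overlapped between the genotypes (826 to 1106 against 938 to 1166 cpm, and 238 to 369 against 307 to 432 cpm). Endothelial markers had a median of 0.04 and no call. Of the 8 smooth muscle and pericyte markers 2 were higher and 6 lower, with a median of −0.07. Only Acta2, smooth muscle actin, was called, where 0.677% of all tested genes were called higher. It averaged 126 cpm in WT hearts against 199 cpm in cmGch1 KO hearts (0.66, SE 0.11, edgeR adjusted p = 0.00672). The smooth muscle markers Tagln (−0.40, SE 0.20), Myh11 (−0.24, SE 0.11) and Cnn1 (−0.21, SE 0.33) were lower and not called. Without both high-Xist libraries Acta2 had 0.51 and was not called (adjusted p = 0.0506). Of 7 atrial markers 5 were tested and none was called, with sums of 116 to 417 cpm in WT hearts and 158 to 319 cpm in cmGch1 KO hearts, and none of 6 adipocyte markers passed the filter. The ventricular marker Myl2 averaged 6868 cpm in WT hearts against 5885 cpm in cmGch1 KO hearts, so ventricular muscle was well represented. The part of these cells in the level of Ndrg4 was not tested.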

How the data were processed

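RNA-seq of left ventricle from 6 WT and 6 cmGch1 KO mice was analysed, and the labels gave each library its group and replicate number. Per the study's methods, dUTP stranded libraries were read from both ends on a NovaSeq, and the authors obtained gene counts by way of HISAT2, Picard and featureCounts. The submitters' processing notes name GRCm38, HISAT2 and SAMtools. The annotation and strand setting used for counting are not given in the sources used here. The authors deposited raw counts per Ensembl gene and a second table of normalized values on a log2 scale, whose tool is not named. Of the 26921 identifiers, 26582 (98.7%) were found in GENCODE M21, which gave symbols, coordinates and exon lengths.

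Counts were scaled by TMM and tested with the quasi-likelihood test of edgeR 4.0.16 in R 4.3.3, as genotype without covariates, on the 11225 genes that had a cpm above 3 in 6 or more libraries, with Benjamini-Hochberg adjustment and an FDR threshold of 0.05. A gene is called where it passed that threshold. Correlations used log2 cpm with a prior count of 2. Levels of neighbouring members were compared within each heart; an exact sign-flip test on the same hearts that set the order could only restate it and is not reported. Alternatives used other normalizations and filters, DESeq2 1.42.0, the exact test of edgeR, limma 3.58.1 on the deposited log2 values, a replicate block, sex-linked expression, a surrogate variable from sva 3.50.0, and libraries left out. Coding sequences were aligned with MAFFT 7.526, and start windows came from RefSeq (GRCm38.p6). The fit was tested on simulated data with 200 changed genes. Totals were 19921398 to 37917806 counts per library, and a count of 0 allows up to 3 counts, for counting error only. Each library is taken as 1 mouse. In the 30 within-genotype pairs the counts differed by far more than sampling noise (chi-square divided by its degrees of freedom, 12.5 to 78.9), so no library repeated another.

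The members and lists were chosen with earlier results of these data known. Named genes were the 4 members, Gch1, called genes of each list, genes whose role is described as background, the 5 genes most like each member, for Ndrg4 also the 5 least like it, and genes overlapping a member. Genes named outside this rule were chosen after their values were seen. They are Ankrd1, Setd6, Cnot1, Csnk2a2, Cfap20, Mmp15, Th, Dbh, Uchl1, Myh6, Myl2 and Xist. Also among them are Slc16a1, Ldhd, Mpc1, Mpc2, Pdk1, Slc2a1, Pdpk1, Nedd4l, Tagln, Myh11 and Cnn1.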

Additional observations from a re-analysis of the deposited data

How the results depend on the processing

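Ndrg4 kept its direction and its call, and Ndrg2 its direction without a call, under all 24 alternatives. These alternatives use the libraries that chose the family, so they are no separate check of the Ndrg4 difference. Ndrg1 turned to 0.0417 with library size alone, and leaving out 1 library gave −0.0682 to 0.00745, with the turn without WT replicate 1. Ndrg3 turned to −0.000708 with no filter, −0.0341 with sex-linked expression as a covariate and −0.0365 without both high-Xist libraries, and leaving out 1 library gave −0.0224 to 0.0482, with turns without WT replicate 3 and cmGch1 KO replicates 2 and 5. The cause was not tested.

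The fit called 50 genes lower and 76 higher. DESeq2 called 155 and 218, the exact test of edgeR 80 and 143, the sex-linked covariate 24 and 40, svaseq 331 and 305, and the fit without both high-Xist libraries 18 and 16, with fewer samples. Library size alone called 36 lower and 116 higher, so 23.7% of calls were lower against 39.7%, and under svaseq and without both high-Xist libraries 52.0% and 52.9% were lower. Leaving out 1 library gave 28 to 96 lower and 44 to 111 higher. Moves of over 1.5 times came without WT replicate 3 (28 and 44), WT replicate 4 (33 lower), WT replicate 5 (29 and 44), cmGch1 KO replicate 1 (96 lower), replicate 2 (48 higher) and replicate 3 (44 higher). The labels do not say what same-numbered libraries share beyond the number. Their deviations from the genotype means correlated at −0.13 to 0.68, over 0.1 in 3 of 6 pairs. Of the 6 WT libraries, 3 were nearest to their own number. Whether a pairing or a batch lies behind this was not tested. The replicate block gave 76 lower and 112 higher.

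Among list genes, with library size alone Akt1 turned to 0.0696, Egln3 to 0.0495 and Popdc3 to 0.0712. Mycn turned to −0.0663 with the sex-linked covariate and −0.0558 without both high-Xist libraries. Leaving out 1 library gave −0.0391 to 0.0445 for Akt1, −0.106 to 0.0424 for Egln3 and −0.0409 to 0.0461 for Popdc3. Of uncalled genes that kept their direction, it moved Vhl from −0.11 to −0.25 (without cmGch1 KO replicate 1) and −0.03 (replicate 6), Gsk3b from −0.12 to −0.06 (replicate 1) and −0.19 (replicate 5), Mycn from 0.18 to 0.08 (replicate 3) and 0.29 (replicate 4), Vegfa from −0.27 to −0.41 (replicate 6), Max from −0.28 to −0.18 (WT replicate 4), Ldha from −0.09 to −0.05 and Akt2 from −0.10 to −0.06 (cmGch1 KO replicate 5), each at its extreme. List medians moved beyond their spread only with library size alone, in 4 of 312 cases. The mean r of the 5 genes most like Ndrg1, Ndrg2, Ndrg3 and Ndrg4 was 0.88, 0.92, 0.81 and 0.91, against 0.86, 0.87, 0.74 and 0.87 with Spearman's rho and 0.90, 0.85, 0.78 and 0.92 without both high-Xist libraries.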

Other observations

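In all, 16 groups of values were examined for a library that stood apart from the other 5 of its genotype, in cpm for the 4 members, Gch1, Myc and Acta2 and as the Ndrg2 to Ndrg4 ratio, each in both genotypes. By Dixon's gap over range, 0 of the 16 held such a library.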
